A study of Mus musculus with 6 samples.

Results

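The genes described here build the acrosome and the sperm head and let sperm bind and fuse with the egg. The members were chosen by name, with earlier results of these data known. The 44 names on the list stand for 43 genes, because Hrb is an older name of Agfg1, and were matched to the gene symbols of the array. Of these genes, 28 were found under their listed symbol and 12 under an older symbol that RefSeq pairs with them, which gave 40 genes and 72 probes out of 29523 named genes and 45281 probes. The listed name Equatorin was first matched by hand to its current symbol Eqtn. Dpy19l2, Fam71f1 and Cpb were not analysed here. A probe was tested if any genotype had it detected in both of its mice, at a detection p-value under 0.05. By this rule 62 member probes on 38 genes were tested, and neither Gopc, a Golgi protein of acrosome formation, nor Cylc1, a protein of the sperm head cytoskeleton, was detected on any array.

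RNA came from 1 testis of each of 6 mice aged 8 weeks, on the C57BL6J background, and each mouse had its own Illumina bead array. There were 2 homozygous knockout mice (KO, H3f3b -/-), 2 heterozygotes (HET, H3f3b WT/-) and 2 wild-type mice (WT, H3f3b WT/WT), and each of the 2 litters supplied a mouse of every genotype. The deletion is constitutive: a floxed H3f3b allele was crossed to Zp3Cre, a Cre driven by the promoter of an oocyte gene, and heterozygous offspring were bred to give homozygotes, so the deletion is not limited to 1 cell type of the testis. H3f3b encodes the replication-independent histone variant H3.3. One label field gives an embryonic age, against the 8 weeks of the source names and the design, which is used here. The labels name separate mice, so the p-values measure the spread between mice, with 2 in each genotype.

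The acrosome is a vesicle made from the Golgi of round spermatids that spreads over the front of the nucleus. It holds enzymes and binding proteins that are released or exposed when sperm meet the coat of the egg. While it forms, a microtubule manchette and a protein shell shape the nucleus, and proteins of the nuclear envelope hold the head to the tail. Many of these genes are transcribed in round spermatids, and cAMP response element modulator (CREM) is a known activator of spermatid genes through the sequence TGACGTCA.

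The H3f3b transcript followed the labelled genotype. In litters 1 and 2 it stood at a log2 normalized signal of 4.43 and 4.28 in KO, where it was not detected, 11.10 and 10.96 in HET and 11.78 and 11.73 in WT. The arrays had a similar depth, with 19809 to 21323 probes detected on each and a summed deposited signal of 15427284 to 17674449. The acrosome label held in these samples: Acr, Spam1 and Izumo1, read at their brightest probes, were each detected on all 6 arrays.

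Setting KO against WT addresses how the adult testis transcriptome differs without H3f3b. Named genes of several roles were lower in KO: Zp3r and Spam1 stood at 47.6% and 50.3% of their WT level, and Spata46, Hyal5, Ace, Eqtn, Izumo1, Spaca3 and Sun5 at between 56.6% and 65.6%. The Zp3r probe was dim, and its log2 difference of -1.07 shrank to as little as -0.48 under other processing settings. Of 38 genes, read at their brightest probe, 9 fell and 0 rose (23.7% lower), against 4.98% of all 14524 genes called lower and 2.64% called higher, 7.63% in all (limma, Benjamini-Hochberg adjusted p under 0.05 over all tested probes). Over single probes 13 of 62 fell (21%) and 0 rose, against 4.66% and 2.25% of all 20573 probes (6.91% called). At an unadjusted p under 0.05, 2 member probes were higher, for Tex101 and Agfg1, against 13.7% of all probes. The median log2 difference of the 38 genes was -0.21 and that of all genes was 0.05, and 28 of the 38 (73.7%) had a negative difference, against 44% of all genes. Both KO mice lay below both WT mice in 21 of the 38 (25.6% of all genes) and above them in 6 (33.1% of all genes). Because the list was chosen with earlier results of these data known, these shares are not an independent test of it.

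The calls rest on few mice. When a KO mouse was left out, the 13 called probes became 0 (litter 1) or 3 (litter 2). Leaving out a HET mouse gave 7 (litter 1) or 6 (litter 2), and leaving out a WT mouse gave 1 (litter 1) or 0 (litter 2). Without the filter on dim probes 3 were called. With litter as a replicate block 20 member probes were called, all lower, against 6.05% of all probes called lower, and they included the same 13. Among them Acrv1 (adjusted p = 0.0480 with limma), Pdilt (0.0247) and the brightest Hook1 probe (0.0248) were called by that fit and not without the block.

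**Figure D1:**
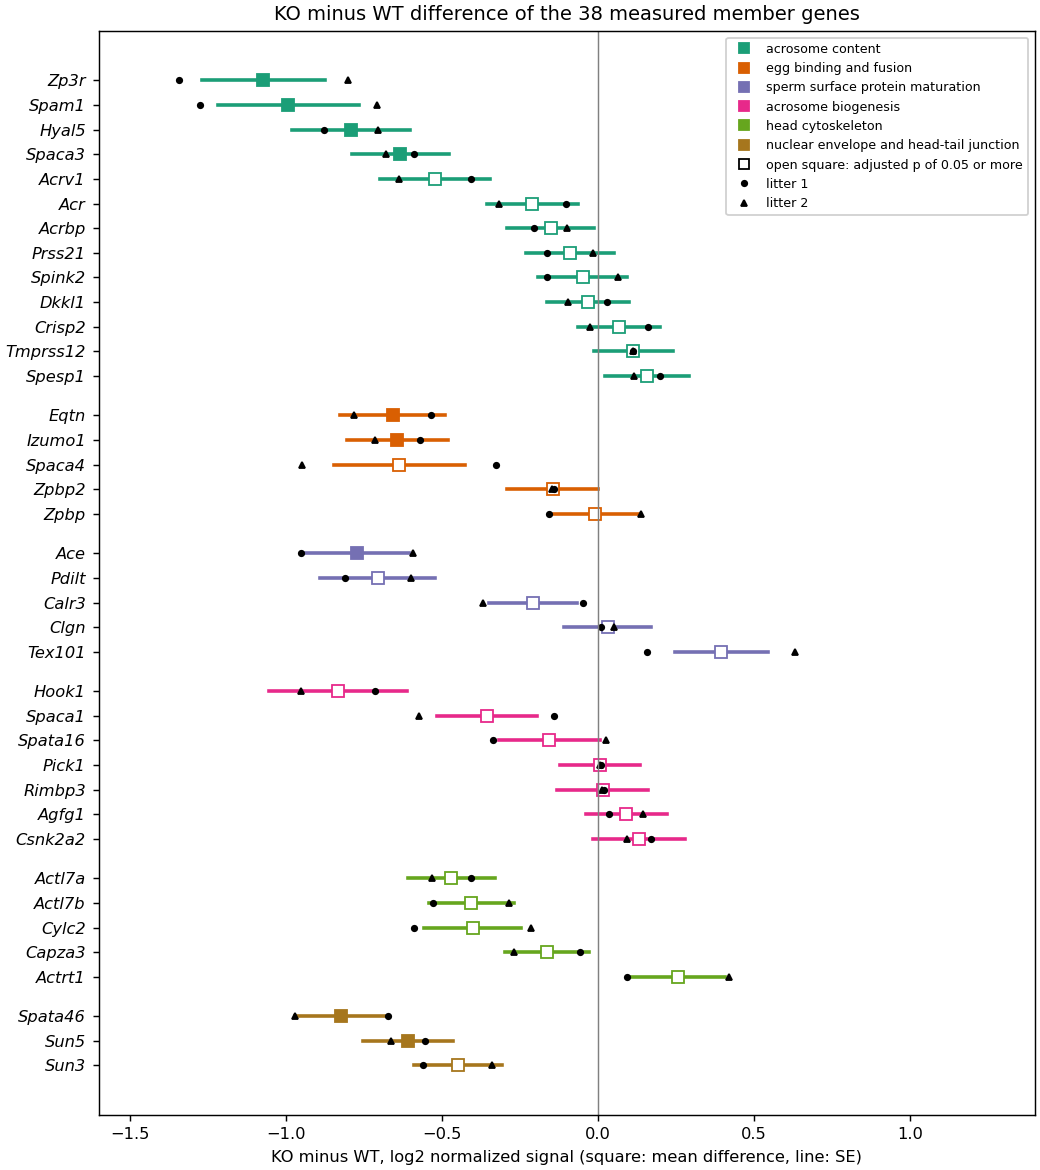
KO minus WT difference in log2 normalized signal for the 38 tested member genes, read at the brightest probe and grouped by role. Squares are mean differences with lines for the SE from limma (filled where the adjusted p was under 0.05), and small circles and triangles are the differences within litter 1 and litter 2. The 9 filled squares all lie left of zero, between -1.07 and -0.61, and 28 of the 38 squares have a negative value.

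The start regions of the genes that fell are shown because 7 of the 8 with a promoter entry in RefSeq hold a close variant of the CREM target sequence. Letters matching TGANGTCA, where N is any base, were searched on both strands in windows from 250 bases before to 50 bases after each start site of RefSeq build GRCm38.p6. This form of the motif was chosen after the sequences and the calls had been seen. Each line gives 120 bases that end 15 bases after the start site, 5′ to 3′ along the gene, with matches in capitals. For Ace the start site shown is the one inside the gene, and for Spaca3 it is the more downstream of the entries. Zp3r is shown as the gene of the 8 that has no match.
Spam1 (chr6:24791083-24791202, plus strand): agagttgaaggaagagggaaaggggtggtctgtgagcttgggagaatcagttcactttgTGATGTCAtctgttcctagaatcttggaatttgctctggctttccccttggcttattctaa
Hyal5 (chr6:24857892-24858011, plus strand): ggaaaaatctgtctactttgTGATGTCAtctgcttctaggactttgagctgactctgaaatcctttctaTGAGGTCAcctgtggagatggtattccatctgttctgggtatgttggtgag
Spaca3 (chr11:80858284-80858403, plus strand): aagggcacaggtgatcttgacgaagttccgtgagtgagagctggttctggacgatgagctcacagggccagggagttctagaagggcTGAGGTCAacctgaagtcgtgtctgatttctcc
Izumo1 (chr7:45621706-45621825, plus strand): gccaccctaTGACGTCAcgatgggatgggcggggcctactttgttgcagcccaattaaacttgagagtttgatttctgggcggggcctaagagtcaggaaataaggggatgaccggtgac
Ace (chr11:105975084-105975203, plus strand): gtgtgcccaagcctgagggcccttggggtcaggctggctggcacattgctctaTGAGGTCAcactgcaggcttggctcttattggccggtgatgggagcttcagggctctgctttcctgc
Spata46 (chr1:170308714-170308833, plus strand): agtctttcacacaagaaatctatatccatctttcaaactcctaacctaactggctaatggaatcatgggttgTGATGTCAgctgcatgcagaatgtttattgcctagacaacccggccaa
Sun5 (chr2:153871070-153871189, minus strand): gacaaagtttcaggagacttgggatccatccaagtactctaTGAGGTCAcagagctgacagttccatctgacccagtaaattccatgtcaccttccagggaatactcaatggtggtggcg
Zp3r (chr1:130629592-130629711, minus strand): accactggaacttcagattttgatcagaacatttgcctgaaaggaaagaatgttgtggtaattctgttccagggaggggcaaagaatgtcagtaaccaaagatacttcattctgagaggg

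The full palindrome TGACGTCA stood in Izumo1 alone among the 36 member genes with a window, and 2.03% of all 27025 genes held it. The shorter form TGACG was no more frequent in the called members than in the others. It was present in 2 of the 8 called members with a window (25%), 7 of the 24 other tested members (29.2%) and 23% of all genes. The form TGANGTCA was chosen with these calls known, so its shares in called and other members are not an independent test. This variant was present in 7 of the 8 called members with a window (87.5%), in 6 of the 24 other tested members with a window (25%) and in 9.56% of the 9445 tested genes with a window. Of all genes called lower in KO, 16.5% of 442 held it, or 15.2% of 434 with the members left out, and of those called higher 8.58% of 268 did. Spam1 and Hyal5, which lie side by side on chromosome 6, share an unbroken stretch of 18 bases, ACTTTGTGATGTCATCTG, that begins 52 bases before the start of Spam1 and 91 bases before that of Hyal5. The stretch includes a TGANGTCA match, so the matches there may not be separate cases. By role, all 3 nuclear envelope genes held TGANGTCA, as did 2 of 3 head cytoskeleton genes, 3 of 4 surface protein maturation genes, 2 of 4 egg binding genes, 3 of 12 acrosome content genes and 0 of 6 acrosome biogenesis genes with a window. A match is a run of letters in this window and does not show that a factor binds there, and genes with several start sites had several windows searched.

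Among acrosome content genes 4 of 13 fell and 0 rose, with a median difference of -0.15. Zp3r, a protein of the acrosomal matrix, had log2 normalized signals of 5.75 and 6.06 in KO, 6.65 and 7.16 in HET and 7.10 and 6.86 in WT. Both KO mice lay below every HET and WT mouse. Zp3r fell by 1.07 on the log2 scale in KO against WT (SE 0.20, limma adjusted p = 0.0224). This probe was dim, with deposited signals of 135.6 and 148.8 in KO and 208.1 and 190.4 in WT, and its difference was -0.57 without background correction and -0.48 in the authors' average-normalized values.

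Spam1, a hyaluronidase on the sperm surface that opens the matrix around the egg, was at 9.22 and 9.88 in KO, 10.28 and 10.74 in HET and 10.49 and 10.59 in WT. Both KO mice were low, the KO mouse of litter 1 most, and HET and WT overlapped. Its difference was -0.99 (SE 0.23, limma adjusted p = 0.0363). This rests on 1 probe, since the other Spam1 probe was detected on 0 KO, 1 HET and 1 WT arrays and was not tested. Hyal5, a neighbouring gene for a related sperm hyaluronidase, was at 8.08 and 8.13 in KO, 8.33 and 8.92 in HET and 8.96 and 8.83 in WT, a difference of -0.79 (SE 0.19, limma adjusted p = 0.0415). KO lay below WT in both litters, while the HET mouse of litter 1 stood near KO and that of litter 2 near WT. Their sequences are related, and probe sequences were not used here, so signal shared between the Spam1 and Hyal5 probes was not tested.

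Spaca3, a lysozyme-like protein of the acrosome, was at 11.43 and 11.61 in KO, 11.91 and 12.13 in HET and 12.02 and 12.29 in WT. Within each genotype the mouse of litter 2 was higher, and the KO mice lay below all others. The difference was -0.63 (SE 0.16, limma adjusted p = 0.0443). Acrv1, a protein of the acrosomal matrix, had the same arrangement, with 12.02 and 12.16 in KO, 12.39 and 12.75 in HET and 12.43 and 12.79 in WT, but its difference of -0.52 did not pass (limma adjusted p = 0.0982).

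Acrosin, the main acrosomal protease, gave a smaller difference. Acr was at 11.34 and 11.40 in KO, 11.48 and 11.62 in HET and 11.45 and 11.71 in WT, a difference of -0.21 (95% interval -0.54 to 0.12, limma adjusted p = 0.380), and its other probe differed by -0.35 (limma adjusted p = 0.122). The first of these differences was -0.34 without the litter 1 mouse of WT and -0.08 without that of litter 2. Acrbp, which binds the precursor of acrosin, differed by -0.15, and by -0.47 at its dimmer probe (limma adjusted p = 0.127). Dkkl1, an acrosomal glycoprotein, was at 12.87 and 12.72 in KO, 12.92 and 12.95 in HET and 12.84 and 12.82 in WT, and KO and WT overlapped while both HET mice were higher (difference -0.03, 95% interval -0.33 to 0.26). Spink2, an inhibitor of acrosomal proteases, the serine proteases Prss21 and Tmprss12, Crisp2, and Spesp1, a protein of the equatorial segment, had differences between -0.09 and 0.16, and 0 of these 5 passed. Crisp2 was close to background, detected on 1 KO array, both HET arrays and 0 WT arrays.

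**Figure D2:**
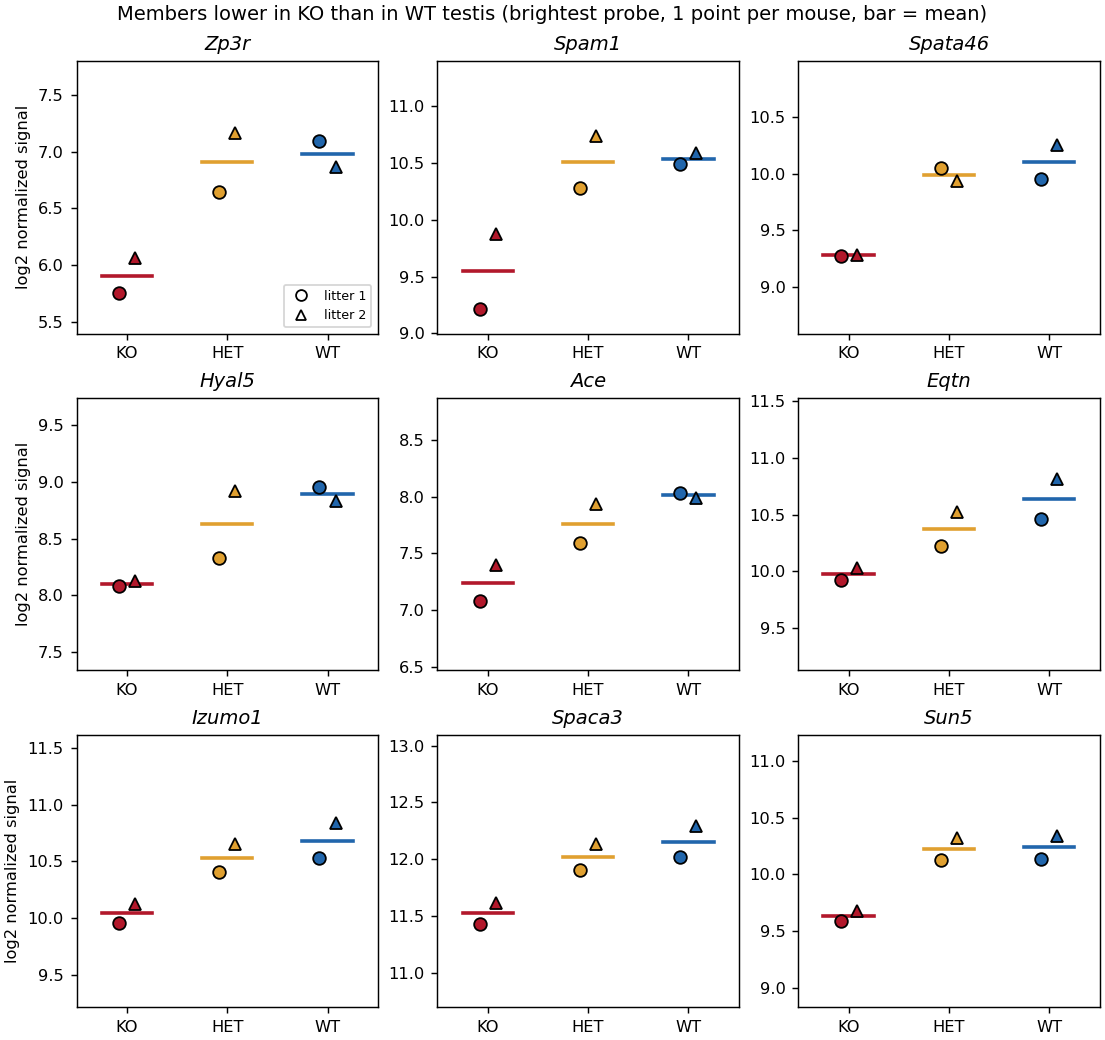
Log2 normalized signal in each mouse for the 9 genes that were lower in KO than in WT (brightest probe). Each panel has the KO, HET and WT mice from left to right, circles for litter 1, triangles for litter 2 and a bar for the mean of the 2 mice, and all panels span the same log2 range. In every panel both KO points lie below both HET and both WT points, and for Spaca3, Izumo1, Eqtn, Spam1 and Sun5 the litter 2 mouse is the higher of each pair.

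Of the 5 genes for egg binding and fusion 2 fell and 0 rose, with a median of -0.64. Izumo1, the sperm membrane protein that binds its receptor on the egg before fusion, was at 9.95 and 10.13 in KO, 10.40 and 10.65 in HET and 10.52 and 10.84 in WT. KO lay below HET and WT, which overlapped. The difference was -0.64 (SE 0.16, limma adjusted p = 0.0475). Eqtn (equatorin, a protein of the acrosomal membrane) was at 9.93 and 10.03 in KO, 10.22 and 10.52 in HET and 10.46 and 10.81 in WT, again with KO lowest (difference -0.66, SE 0.17, limma adjusted p = 0.0488).

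Spaca4, an acrosomal membrane protein of zona binding, differed by as much at both of its probes (-0.64 and -0.73) without passing (limma adjusted p = 0.0944 and 0.0713). Its WT mice were 10.91 and 11.54 at the brighter probe, wider apart than the KO mice, which were both at 10.59. The zona pellucida binding proteins had smaller differences. Zpbp was at 11.87 and 12.14 in KO, 12.06 and 12.05 in HET and 12.02 and 12.01 in WT, a difference of -0.01 (95% interval -0.33 to 0.31), and Zpbp2 differed by -0.14 (limma adjusted p = 0.557).

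The genes for maturation of sperm surface proteins divided, with 1 of 5 lower and 0 higher. Ace encodes angiotensin-converting enzyme, whose testis form is made in spermatids from a start site inside the gene. All 3 of its probes fell, by 0.77, 0.57 and 0.87 on the log2 scale (limma adjusted p = 0.0325, 0.0372 and 0.0230). Without background correction these differences were -0.55, -0.34 and -0.47. In the authors' average-normalized values they were -0.44, -0.24 and -0.38, and the middle probe lost its call there (limma adjusted p = 0.0785) and with median scaling (limma adjusted p = 0.116). The brightest Ace probe was at 7.08 and 7.40 in KO, 7.59 and 7.93 in HET and 8.03 and 7.99 in WT, so that neither KO nor HET overlapped WT. Whether these probes separate the testis form from the longer form was not tested.

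Pdilt, Calr3 and Clgn are chaperones of the endoplasmic reticulum that sperm surface proteins need, and 0 of the 3 passed. Pdilt was at 10.81 and 11.22 in KO, 11.38 and 11.73 in HET and 11.62 and 11.82 in WT, a difference of -0.71 just short of the threshold (SE 0.18, limma adjusted p = 0.0522). Calr3 differed by -0.21, and its other tested probes by -0.41 and -0.30. At its brightest probe Clgn was at 13.32 and 13.16 in KO, 13.22 and 13.17 in HET and 13.31 and 13.11 in WT, with overlapping groups and a difference of 0.03. This sign turned with median scaling (-0.06) and with the authors' average-normalized values (-0.04). The other tested Clgn probe differed by 0.30 (limma adjusted p = 0.189), with both KO mice above both WT mice. Tex101, a germ cell surface protein, had the highest positive difference of the 38 genes, with 9.69 and 9.93 in KO, 9.45 and 9.49 in HET and 9.54 and 9.30 in WT (0.40, limma adjusted p = 0.126).

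Acrosome biogenesis genes had a median difference of 0.01, and 0 of 7 passed at the brightest probe. Csnk2a2, a casein kinase subunit needed for head shape, was at 12.04 and 11.82 in KO, 11.91 and 11.70 in HET and 11.87 and 11.73 in WT (difference 0.13, limma adjusted p = 0.596), and its 4 probes lay between -0.02 and 0.23. Pick1 and Rimbp3 differed by 0.01 and 0.02, and Spata16 and Spaca1 by -0.16 and -0.36, also without passing. The dimmer tested probes of Pick1 and Spata16 differed by -0.38 and -0.39 (limma adjusted p = 0.163 and 0.192). Pick1 acts in vesicle traffic, Rimbp3 at the manchette, Spata16 at the Golgi and Spaca1 in the inner acrosomal membrane.

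Hook1, a protein of the manchette, had the widest difference of this role, and at its brighter probes its HET mice lay among its KO mice. The brightest probe was at 8.95 and 9.36 in KO, 9.01 and 9.15 in HET and 9.66 and 10.31 in WT (KO minus WT -0.83, SE 0.22, limma adjusted p = 0.0541), and the next at 7.93 and 8.42 in KO, 7.98 and 8.21 in HET and 8.88 and 9.02 in WT (-0.77, SE 0.18, limma adjusted p = 0.0398). HET minus WT was -0.90 and -0.85 at these probes (limma adjusted p = 0.463 and 0.444), and KO minus HET was 0.07 and 0.08 (limma adjusted p = 0.885 and 0.845). The dimmest tested Hook1 probe differed from this, with 4.61 and 4.39 in KO, 4.80 and 4.96 in HET and 4.99 and 4.97 in WT. It was close to background, detected on 1 KO, 2 HET and 2 WT arrays, and passed the filter only through HET and WT. There KO minus WT was -0.48 (limma adjusted p = 0.0717) and HET minus WT was -0.10 (limma adjusted p = 0.882). Agfg1, which acts in the fusion of proacrosomal vesicles, had probes that disagreed. Its brightest probe differed by 0.09, the next fell by 0.62 (9.23 and 9.27 in KO, 9.62 and 9.50 in HET and 9.81 and 9.93 in WT, limma adjusted p = 0.0314), and the dimmest differed by 0.37 (limma adjusted p = 0.127).

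**Figure D3:**
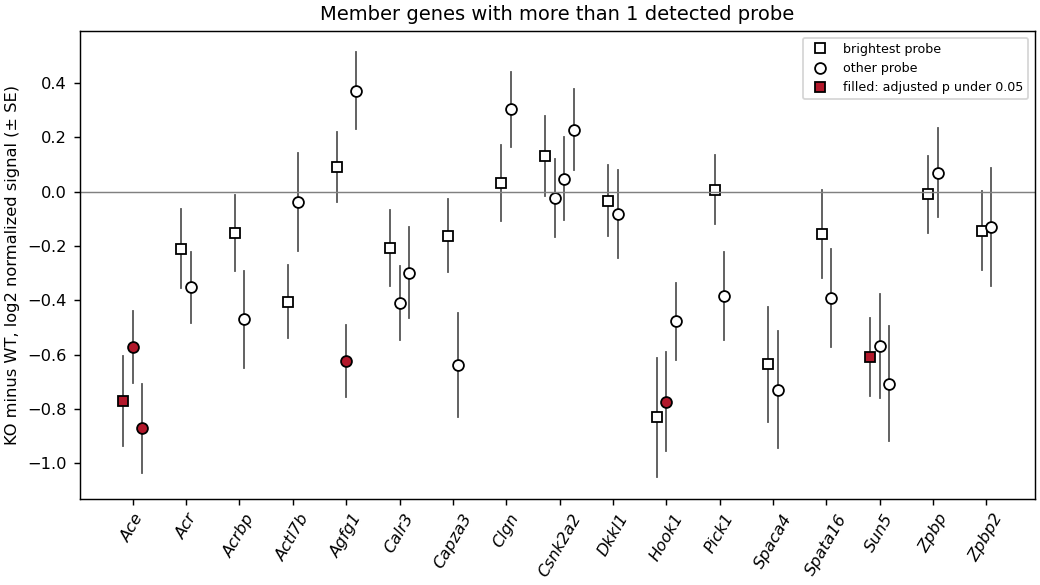
KO minus WT difference in log2 normalized signal at each tested probe of the 17 member genes with more than 1. Squares are the brightest probe of a gene, circles the others, lines the SE from limma, and red marks an adjusted p under 0.05. The 3 Ace probes, 3 Sun5 probes and 3 Hook1 probes each lie on the negative side, while the 3 Agfg1 probes span both signs.

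Of the 17 genes with more than 1 tested probe, 13 had the same sign of KO minus WT at every probe and 4 (Agfg1, Csnk2a2, Pick1 and Zpbp) had mixed signs. Counting any probe, 11 member genes had a call, the 9 above with Hook1 and Agfg1.

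For the head cytoskeleton 0 of 5 genes passed. Of the 4 that were detected in KO, 3 had a negative difference. Actl7a, an actin-related protein that anchors the acrosome, was at 12.56 and 12.52 in KO, 12.76 and 13.00 in HET and 12.97 and 13.05 in WT. KO lay below all other mice, and the difference of -0.47 (SE 0.14, limma adjusted p = 0.0733) passed under 5 of 8 other settings. Actl7b, from a neighbouring gene, differed by -0.40 (limma adjusted p = 0.0965) at its brighter probe and by -0.04 at its dim one. Capza3, a capping protein subunit of sperm, differed by -0.16 at its brighter probe and -0.64 at its dim one. Actrt1, another actin-related protein, differed by 0.26, and Cylc2, detected on 0 KO, 2 HET and 1 WT arrays, was too close to background for a fold.

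Of the 3 nuclear envelope and head-to-tail junction genes 2 fell, and all had a negative difference (median -0.61). Spata46, a protein of the spermatid nuclear membrane, was at 9.28 and 9.28 in KO, 10.05 and 9.93 in HET and 9.95 and 10.26 in WT. The KO mice were alike and well below both other genotypes, which overlapped. The difference was -0.82 (SE 0.15, limma adjusted p = 0.0215), and of the called members Spata46 alone kept its call under all 8 other settings of background, scaling, filter, variance and block. Sun5, which couples the sperm head to the tail, was at 9.59 and 9.68 in KO, 10.13 and 10.32 in HET and 10.14 and 10.34 in WT (difference -0.61, SE 0.14, limma adjusted p = 0.0398). Its other probes differed by -0.57 and -0.71 without passing (limma adjusted p = 0.0999 and 0.0738). Sun3, which links the nucleus to the manchette, differed by -0.45 (limma adjusted p = 0.0832).

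HET testes stood closer to WT. In HET against WT, 0 of 62 member probes passed with limma, as did 0 of all 20573 (0% called). In either direction, 3 of 62 member probes had an unadjusted p under 0.05, all lower and from Hook1 and Agfg1, against 8.84% of all probes. The median member difference was -0.05 over 38 genes and 0.01 over all genes, and 28 of the 38 were negative, against 48.4% of all genes. For the 9 genes called in KO, HET minus WT lay between -0.27 for Hyal5 and -0.02 for Sun5. The 95% interval for Spam1 in HET against WT was -0.54 to 0.48, and that for Spata46 was -0.44 to 0.22, so falls of up to 0.44 on the log2 scale lie within both.

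KO against HET gave the same direction, and these comparisons share the KO or WT arrays with the one above. Of 62 member probes 0 passed with limma, against 0.112% of all probes called (23 of 20573), and 24 had an unadjusted p under 0.05, against 19.2% of all probes. The smallest adjusted p was 0.0806, for Zp3r (KO minus HET -0.997, SE 0.196), followed by a dimmer Ace probe (-0.65, limma adjusted p = 0.0819). Spata46 differed by -0.71 and Spam1 by -0.96 (limma adjusted p = 0.0825 and 0.103). KO minus HET was negative in 26 of 38 genes, against 46.3% of all genes. Both KO mice were below both HET mice in 23 of 38 genes (60.5%, against 24.6% of all genes), and both HET mice were below both WT mice in 7 (18.4%, against 18.3%). The 26 and the 23 include Crisp2 and Cylc2, which passed the detection filter only through HET, so the filter favoured this direction for them. In all 9 called genes the HET mean lay between the KO and WT means, as it did for 93.8% of all 724 genes called lower in KO and 50.8% of all genes.

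In 10 of 38 genes (26.3%) the litter 2 mouse was above the litter 1 mouse in KO, HET and WT alike, against 17.2% of all genes, and 5 of the 9 called genes were among them. KO minus WT was negative within both litters for 24 of 38 genes (63.2%, against 31.2% of all genes). Within litters, Spam1 differed by -1.28 and -0.71, Zp3r by -1.34 and -0.80 and Izumo1 by -0.57 and -0.71 in litters 1 and 2.

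Other genes of the same processes were read from lists chosen with earlier results of these data known. Of 52 such genes tested 3 fell and 0 rose in KO against WT, 39 had a negative difference and the median was -0.27. Over all genes 4.98% were called lower, close to the share here, and 44% had a negative difference. The falls were in Zan (-1.04, limma adjusted p = 0.0160), which encodes zonadhesin, a protein that binds the egg coat, Lyzl4 (-0.69, limma adjusted p = 0.0372), a lysozyme-like protein, and Tmem190 (-0.66, limma adjusted p = 0.0288), a small membrane protein of the acrosome. By list, 14 of 15 further acrosome content genes, 9 of 10 fusion and zona genes and 15 of 18 head shaping genes had a negative difference. Of 9 further acrosome biogenesis and Golgi genes 1 did, with a median of 0.27 and 0 past the threshold.

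Whole testis mixes many cell types, and fewer cells of a type cannot be told apart here from less RNA per cell. The summed normalized signal of the 38 members on a linear scale was 90575 and 90308 in KO, 98652 and 103018 in HET and 104237 and 107429 in WT, and the KO mean was 0.855 times the WT mean. The sum over 9 late spermatid genes was 0.878 times WT (135615 and 137169 in KO, 144605 and 151984 in HET and 153907 and 156620 in WT), with a negative difference in 9 of 9 and 0 past the threshold. For the counts given here, of all 14524 genes 8138 had a positive and 6386 a negative KO minus WT difference. Of the same genes 2.64% were called higher and 4.98% lower. Most marker lists of somatic and early germ cells had higher sums in KO. Sertoli cell genes summed to 1.47 times WT (12 of 12 positive, 5 called higher), Leydig cell genes to 1.5 times (5 of 7 positive, 2 called) and spermatogonial genes to 1.34 times (7 of 7 positive, 0 called), and spermatocyte genes to 1.11 times (4 of 6 positive, 0 called). The part of these shifts in the member differences was not tested. Macrophage genes summed to 0.820 times WT although 7 of 8 were positive (2 called higher), and 3 epididymis genes to 0.640 times WT (2 called lower), at sums of 324 and 287 in KO and 435 and 519 in WT.

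**Figure D4:**
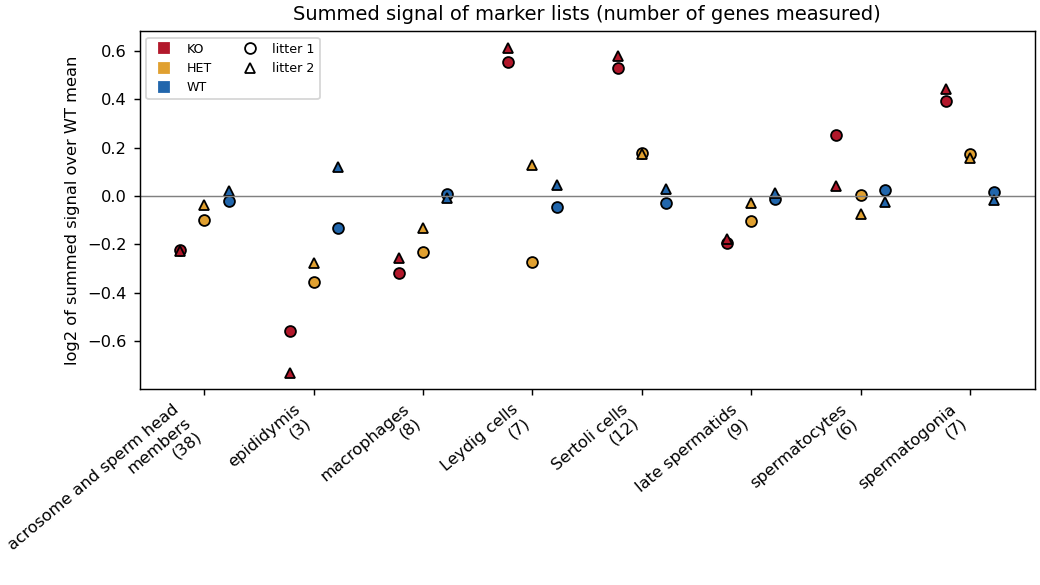
Summed normalized signal of the members and of marker lists in each mouse, as log2 over the mean of the WT mice, with the number of genes measured under each name. KO (red), HET (yellow) and WT (blue) run from left to right within each list, with circles for litter 1 and triangles for litter 2. Both KO mice lie below both WT mice for the members and for late spermatid, macrophage and epididymis genes. They lie above both WT mice for Sertoli, Leydig, spermatogonial and spermatocyte genes.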

How the data were processed

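Total RNA from 1 testis of each of 6 mice was amplified to biotin-labelled cRNA and read on Illumina bead arrays, per the labels. The authors deposited, per the file headers, for each of 45281 probes and each array, a mean bead intensity with its detection p-value, and per the submitters' processing notes these came from GenomeStudio, whose version is not given in the sources used here. A further deposited table held the same intensity values rescaled to an equal mean on each array.

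Background was corrected and signals were quantile normalized with limma 3.58.1 in R 4.3.3 (neqc, offset 16, controls inferred from detection p-values). The offset shrinks differences of dim probes. The 20573 probes detected on both arrays of at least 1 genotype were tested with lmFit and eBayes (two-sided) in 1 fit over 6 arrays with genotype as the only term, and called at a Benjamini-Hochberg adjusted p under 0.05. A gene was read at its brightest tested probe. The number of arrays limits the precision. The labels say that the replicate number marks a litter, so the numbers pair the mice. Litter differences correlated weakly between genotypes across probes (0.17 for KO and HET, 0.13 for KO and WT, 0.09 for HET and WT). Alternatives were other background corrections and scalings, no filter, an intensity trend, the rescaled table, litter as a block, and leaving out each array. Every member could be named. Values in every mouse went to members with a call, to Acr, Spam1 and Izumo1, to the brightest member of each role, and to a few others chosen after their values were seen. The members and lists were chosen with earlier results of these data known. The fit was tested on simulated data. Gene names and promoter sequences came from RefSeq tables of assembly GRCm38.p6, and 27 probes with symbols turned into dates were left unnamed.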

Additional observations from a re-analysis of the deposited data

How the results depend on the processing

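In KO against WT, the member calls were lower in KO under each setting that gave any, except for 1 probe called higher without background correction and 3 with the rescaled table. Their number moved from the 13 reported. The count was 24 without background correction, 25 with normexp at offset 50, 3 without the filter, 25 with an intensity trend, 28 with the authors' rescaled table and 20 with litter as a replicate block, and it ran from 0 to 7 when 1 array was left out. Over all probes the counts were 1421 with the main settings, 2854 without background correction, 2783 at offset 50, 530 without the filter, 2788 with a trend, 4292 with the rescaled table and 1912 with the block, and 25 to 997 with 1 array left out. Median scaling (18 member probes) moved the median of all probes to 0.12, against which the member median was -0.31, and lower calls made up 3.83% of all probes there, against 4.66%, out of 9.21% and 6.91% called in either direction, and with the rescaled table lower calls were 6.6% out of 20.9%. In KO against HET, 0 member probes were called with the main settings, 6 without background correction, 6 at offset 50, 2 with median scaling, 10 with a trend and 14 (12 lower, 2 higher) with the rescaled table. The shares of all probes called in KO against HET also rose, and in the same order were 0.112%, 3.79%, 3.4%, 1.2%, 4.19% and 8.19%. In HET against WT, 2 were called with the rescaled table and 0 under the other settings. The cause of these moves was not tested. Of 19 named member probes, 7 values turned sign, all of probes that did not pass. Clgn (0.03) was -0.0648 with median scaling and -0.0400 with the rescaled table, and ran from -0.0679 to 0.129 with 1 array left out. Zpbp (-0.01) was 0.0304 as the mean over its probes and ran from -0.150 to 0.131 with 1 array left out, and Dkkl1 (-0.03) from -0.106 to 0.0400. Leaving out an array, Izumo1, Eqtn, Spaca3, Sun5 and the middle Ace probe were called in 0 of 6 fits, and Spam1, Spata46 and the dimmest Ace probe in 3. With 1 array left out, the lone mouse is assumed to vary like the other genotypes.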

Other observations

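Of the pairs of member genes that lie next to each other among protein-coding genes, Spam1 and Hyal5 on chromosome 6 were both lower in KO than in WT (-0.99 and -0.79), and Actl7a and Actl7b on chromosome 4 differed by -0.47 and -0.40 without passing. TATAAA was present in the promoter windows of 2 of 36 member genes (5.56%, against 15.7% of all genes), and GTTGCC, a core of the motif bound by RFX factors, in 9 of 36 (25%, against 14.1%), of which 1 was among the 8 called genes with a window. Both motifs were searched on both strands.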
